A study of Mus musculus with 234 samples.

Results

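The 10 enzymes of mitochondrial fatty acid β-oxidation described here (*Cpt1b*, *Cpt2*, *Acadvl*, *Acadl*, *Acadm*, *Hadha*, *Hadhb*, *Hadh*, *Acaa2* and *Eci1*) were taken by name from a table of 55538 features, of which 23664 had a count in at least 1 cell. Each of the 10 names occurred once and each had a count. Long-chain fatty acids enter mitochondria as carnitine esters, and each turn of the β-oxidation cycle then shortens the chain by a dehydrogenation, a hydration, a second dehydrogenation and a thiolytic cleavage. The electrons go to the respiratory chain and the acetyl-CoA to the citric acid cycle. The heart shifts towards this fuel after birth, and the adult heart draws most of its ATP from it.

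SMART-seq2 libraries were made from 234 single ventricular cardiomyocytes (CMs), picked by hand after Langendorff dissociation, of 5 mice. Control CMs came from mice M26 (24 cells) and M73 (9 cells), whose titles mark them as wt and whose strain label is C57BL/6. The study's methods instead give a mixed background of several strains, and count as controls animals of the same breeding that were wild-type or carried only PGK-Cre or only the silent transgene. Homozygous PGKcre:BAG3P209L CMs were 21 bright and 18 dim ones of mouse M25, and 59 bright and 50 dim ones of mouse M116. A single heterozygous animal, M72, gave 27 bright and 26 dim CMs. In these mice Cre under the ubiquitous PGK promoter removes a stop cassette from a transgene made from 1 embryonic stem cell clone, so that the CAG promoter drives human BAG3P209L fused to eGFP, and bright and dim refer to the eGFP fluorescence of the picked cell. An age of 2 weeks applies to the control and homozygous mice, and the age of mouse M72 is not given.

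Counts were summed per mouse and brightness class, which gave 8 sums of 4096609 to 40508124 counts. The human BAG3 feature stood at 0.446 and 0.580 normalized CPM (counts scaled to the library total and by edgeR's TMM factors) in control mice M26 and M73, at 280 in bright and 10.4 in dim CMs of mouse M25, and at 209 in bright and 91.1 in dim CMs of mouse M116. In mouse M72 it went against the labels, with 110 in the sum labelled bright and 243 in the sum labelled dim. The control sum of mouse M73 stood apart, with 21.9% of its counts on mitochondrially encoded genes against 16.8% and 17.4% in mouse M72, from the same plate, and 9.54% to 11.6% in the other 5 sums. Of the 21 wells labelled bright from mouse M25, 3 were low in CM markers. Their summed level of 10 CM markers was 600 to 4672 CPM, while the lowest of all other wells had 39776. Of the 3, 1 had 3143 genes and 50106 CPM of fibroblast markers. The others had 938 and 1117 genes, where the median of the 21 wells was 6369, and 19.4 and 0 CPM of fibroblast markers. Values for bright CMs are therefore also given without these wells where that matters.

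The promoter windows of 4 members are shown because *Hadh*, *Acadvl* and *Acadm* are the members whose control and homozygous mice did not overlap in either brightness class, and because *Hadha* and *Hadhb* face away from each other across one start region. The windows run from 250 bases before to 50 after the gene's start, are from RefSeq (GRCm38.p6), and exist in that table for 8 of the 10 members. Capitals mark AGGTCA, the core of many nuclear receptor elements, and GGGCGG, a GC box, on either strand.

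Hadh, chr3:131272052-131272351, minus strand: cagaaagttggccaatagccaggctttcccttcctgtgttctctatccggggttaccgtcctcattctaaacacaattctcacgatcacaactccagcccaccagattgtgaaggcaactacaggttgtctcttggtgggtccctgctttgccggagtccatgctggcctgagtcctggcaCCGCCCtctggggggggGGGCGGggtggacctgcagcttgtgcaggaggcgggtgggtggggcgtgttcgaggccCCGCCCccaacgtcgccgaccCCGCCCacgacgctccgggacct

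Acadvl, chr11:70015379-70015678, minus strand: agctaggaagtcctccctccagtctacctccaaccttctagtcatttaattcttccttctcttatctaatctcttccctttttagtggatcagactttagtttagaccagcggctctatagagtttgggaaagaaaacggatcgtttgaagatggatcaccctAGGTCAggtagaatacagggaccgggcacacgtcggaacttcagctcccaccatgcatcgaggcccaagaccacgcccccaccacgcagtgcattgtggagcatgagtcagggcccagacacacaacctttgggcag

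Acadm, chr3:153944594-153944893, minus strand: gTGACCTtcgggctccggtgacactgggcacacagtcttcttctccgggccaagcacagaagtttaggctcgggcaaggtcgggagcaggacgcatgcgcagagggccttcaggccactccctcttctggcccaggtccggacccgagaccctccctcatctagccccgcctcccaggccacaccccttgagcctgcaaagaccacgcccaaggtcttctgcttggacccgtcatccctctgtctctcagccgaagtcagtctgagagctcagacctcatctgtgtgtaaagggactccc

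Hadhb, chr5:30155003-30155302, plus strand: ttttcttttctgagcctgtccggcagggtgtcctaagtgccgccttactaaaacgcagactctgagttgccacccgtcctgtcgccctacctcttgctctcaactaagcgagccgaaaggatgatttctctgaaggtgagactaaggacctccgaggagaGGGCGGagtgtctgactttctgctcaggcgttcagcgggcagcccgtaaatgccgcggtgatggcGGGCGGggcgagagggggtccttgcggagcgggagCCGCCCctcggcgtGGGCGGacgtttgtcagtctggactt

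The *Hadhb* window shares 228 bases with the *Hadha* window, which lies at chr5:30154931-30155230 on the minus strand. AGGTCA was found in 2 of the 8 member windows, those of *Acadm* and *Acadvl*, and in 16.3% of 32851 windows in the table. GGGCGG was found in 6 of the 8 and in 35.7% of all windows. The longer motif TCAAGGTCA, which contains AGGTCA, was found in 0 of the 8 member windows and in 0.423% of all windows.

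**Figure D1:**
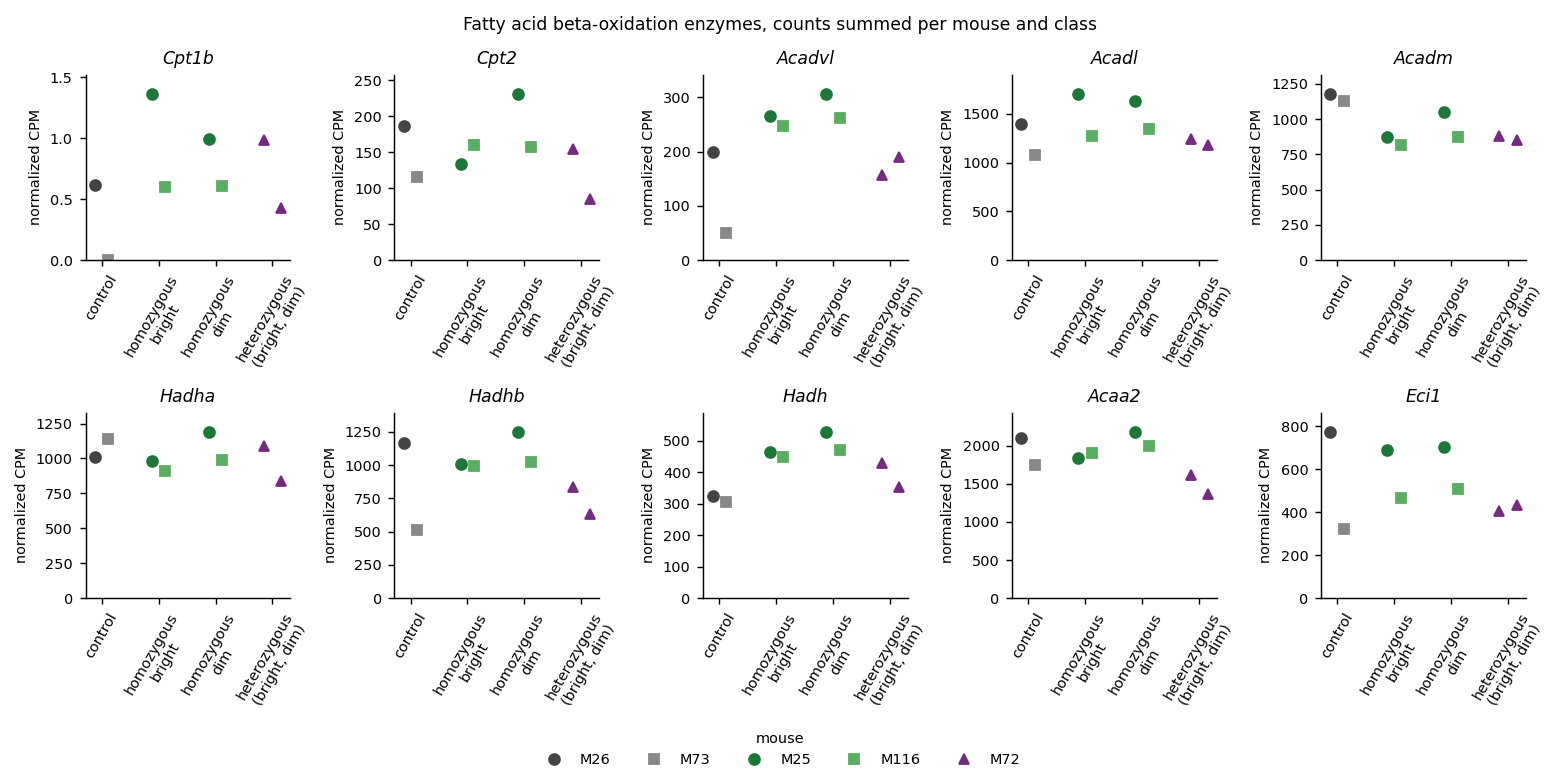
Normalized CPM (y axis, from 0) of each of the 10 members in the 8 sums, 1 panel per gene, with 1 point per mouse and class and no error bar. *Hadh* and *Acadvl* were higher and *Acadm* lower in the 4 homozygous sums than in both control mice, and the control mouse M73 lay far below M26 for *Acadvl*, *Hadhb* and *Eci1*.

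*Cpt1b*, the muscle form of the carnitine palmitoyltransferase of the outer membrane, could barely be read from these counts. It had 126 counts over all 234 cells, with 11 and 0 counts in control mice M26 and M73, 27 and 27 in the bright sums of mice M25 and M116, 19 and 23 in their dim sums, and 13 and 6 in the sums labelled bright and dim of mouse M72. In GENCODE M21, 94.8% of the bases of its main transcript also belong to *Gm44502* on the same strand, and *Gm44502* had 0 counts. All 1206 genes with no exon base of their own had 0 counts, whereas 48.0% of the 47244 genes with at least 200 bases of their own had a count, so bases shared by 2 genes did not count. *Acadvl*, the very long-chain acyl-CoA dehydrogenase, shared 45.0% of its main transcript with *Dvl2* on the opposite strand. Another 0 was found for 282 genes with at least 200 bases of their own on their strand but none when strand is ignored. The 0 counts of *Cpt1b* in mouse M73 allow up to 3 counts, or 0.870 normalized CPM. The counts of *Cpt1b* and *Acadvl* are thus from part of the transcript, and *Cpt1b* is left out of the levels below.

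Levels between genes were compared as normalized CPM per kilobase of countable bases of the main transcript. *Acaa2*, the thiolase that cleaves medium- to long-chain 3-ketoacyl-CoA, was the highest of the other 9 members in 8 of 8 sums, with a median of 1235 (range 901 to 1435). *Acadl*, the long-chain acyl-CoA dehydrogenase, was second in 8 of 8 sums, with a median of 684 (565 to 887). *Hadhb* (median 487), *Acadm* (429) and *Eci1* (428) changed places between sums. *Hadha* (253) and *Hadh* (245) also had overlapping ranges, while *Acadvl* (188) and *Cpt2* (65.8), the carnitine palmitoyltransferase of the inner membrane, were the lowest pair in every sum. The 10 members together took 0.539% to 0.937% of all counts of a sum.

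The first comparison asked how bright homozygous CMs differ from control CMs in these enzymes. None of the 10 members passed an adjusted p of 0.05 (edgeR's quasi-likelihood test, Benjamini-Hochberg, 2 mice per group), against 1 of 12203 genes tested (0.00819%), the human BAG3 feature. At an unadjusted p under 0.05 the counts were 0 of 10 members and 999 genes (8.19%), and DESeq2 called 106 genes and 0 members. The median log2 fold change was 0.14 over the 10 members, 0.05 over the 9 without *Cpt1b* and 0.05 over all genes tested. The 2 bright values were both higher than the 2 control values for 2 members and both lower for 2, where 24.6% and 14.3% of all genes did so.

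*Hadh*, the 3-hydroxyacyl-CoA dehydrogenase for medium and short chains, stood at 326 and 305 normalized CPM in control mice M26 and M73 and at 465 (M25) and 447 (M116) in bright CMs. The control values lay close together and below both bright values. The log2 fold change was 0.51 ± 0.30 (SE, n = 2 mice per group), with an edgeR adjusted p of 0.663. *Hadh* was 0.51 higher on the log2 scale in mouse M25 than in mouse M26, from one library set, and 0.55 higher in mouse M116 than in mouse M73, from the other.

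*Acadm*, the medium-chain acyl-CoA dehydrogenase, stood at 1175 and 1127 normalized CPM in the control mice and at 875 (M25) and 819 (M116) in bright CMs. Both bright values were below both control values, with differences of -0.43 and -0.46 on the log2 scale within the library sets, and the log2 fold change was -0.47 ± 0.26 (SE, n = 2 mice per group, edgeR adjusted p = 0.652). Without the 3 wells it was -0.40. With edgeR's library size scaling alone, which moves the median of all genes from 0.05 to 0.34, *Acadm* was at -0.15 and *Hadh* at 0.83. With equal weight per cell in limma, where the median of all genes was 0.32, they were at -0.06 and 1.46.

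*Acadvl* stood at 200 and 50.5 normalized CPM in control mice M26 and M73, and at 266 (M25) and 248 (M116) in bright CMs. Both bright values were above both control values, but the control mice lay far from each other, and the value of mouse M73 rested on 174 counts. The log2 fold change was 0.95 ± 0.55 (SE, n = 2 mice per group, edgeR adjusted p = 0.660), made up of 0.41 within one library set and 2.30 within the other. The remaining members other than *Cpt1b* (0.74 ± 1.22) ranged from -0.21 ± 0.27 for *Hadha* to 0.25 ± 0.28 for *Acadl*, and *Hadha*, at 1011 and 1138 in control and 979 and 911 in bright CMs, overlapped between groups once the 3 wells were left out.

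The counts of *Hadh* relative to *Acadm*, a ratio within a library that no scaling touches and that was chosen after the values were seen, were 0.277 and 0.270 in control mice M26 and M73. In homozygous CMs the ratio was 0.531 and 0.546 in bright and 0.500 and 0.539 in dim CMs (M25 and M116), and in mouse M72 it was 0.490 in the sum labelled bright and 0.415 in that labelled dim. All 6 transgenic sums lay above both controls. For 9 of the 36 pairs of readable members, the ratio in all 6 transgenic sums lay on one side of both controls. This held for 13.6% of 41373156 pairs of the 9097 genes with a count in every sum. The pairs share genes, mice and control sums, so the 9 are not separate observations. *Hadh* and *Acadm* were each in 3 of them. *Acadvl*, counted from part of its transcript, was in those with *Acadm*, *Hadhb*, *Acaa2* and *Eci1*. *Acadl*/*Acadm*, at 0.960 and 1.18 in the control mice and 1.39 to 1.94 in the transgenic sums, and *Hadh*/*Hadha*, at 0.268 and 0.322 against 0.396 to 0.491, were among the 9. Over single CMs with at least 1000 genes, without the wells low in CM markers, the median ratio was 0.286 and 0.266 in the control mice and between 0.404 and 0.560 in the transgenic sums. Summed CM markers moved with this, at 95114 and 94294 normalized CPM in the control mice and 63836 to 80024 in the transgenic sums, and their part in it was not tested.

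**Figure D2:**
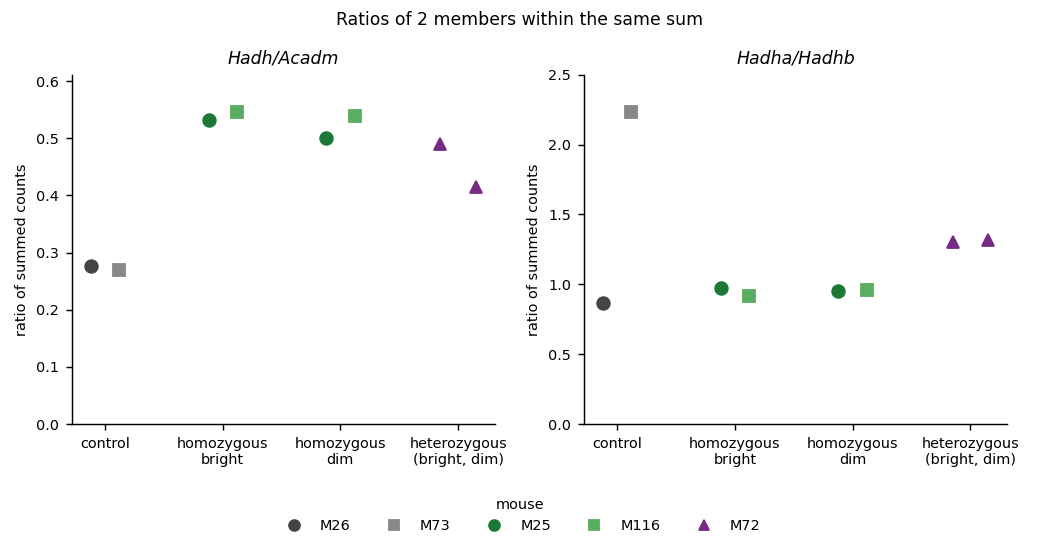
Ratios of summed counts of 2 members within the same sum (y axes, from 0), with 1 point per mouse and class. *Hadh*/*Acadm* separated controls (0.270 and 0.277) from the transgenic sums (0.415 to 0.546), whereas *Hadha*/*Hadhb* was highest in control mouse M73 (2.23) and mouse M72 (1.30 and 1.32).

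The second comparison set dim homozygous CMs against the same control sums. Again 0 of the 10 members and 0 of 12195 genes (0%) passed an adjusted p of 0.05 with edgeR, an unadjusted p under 0.05 was seen for 0 members and 987 genes (8.09%), and DESeq2 gave 55 genes and 0 members. The median log2 fold change was 0.28 over the 10 members, 0.25 without *Cpt1b* and 0.04 over all genes tested. *Hadh* stood at 527 and 469 normalized CPM in the dim CMs of mice M25 and M116, above both controls, with a log2 fold change of 0.64 ± 0.33 (SE, n = 2 mice per group, edgeR adjusted p = 0.652). *Acadvl* stood at 305 and 262, with 1.07 ± 0.53 (edgeR adjusted p = 0.637). That fold change was 0.50 with control mouse M73 left out and 2.47 with mouse M26 left out. *Acadm* stood at 1053 and 871, below both controls, with -0.28 ± 0.30 (edgeR adjusted p = 0.862) and 0.01 with library size scaling alone, where the median of all genes was 0.31. Both dim mice lay above both controls for 2 members and below them for 1, where 24.1% and 13.7% of all genes did so. Summed CM markers moved with these values (79667 and 63836 normalized CPM in the dim sums against 95114 and 94294 in the control mice), as did immune markers, at 70.3 and 57.2 against 2.29 and 14.2, with 5 of 5 tested above both controls, and their part was not tested. Since both comparisons share the control sums, their values are not independent of each other.

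The size of these differences depended on which control mouse was in the fit. Leaving out mouse M73 moved the median over the members from 0.14 to -0.13 for bright and from 0.28 to 0.07 for dim CMs. Leaving out mouse M26 moved it to 0.48 and 0.71. The median of all genes tested moved too, to 0.20 and 0.17 without mouse M73 and to 0.94 and 0.93 without mouse M26. Between the control mice themselves, the difference of mouse M73 from mouse M26 on the log2 scale was -1.99 for *Acadvl*, -1.26 for *Eci1*, the enoyl-CoA isomerase for unsaturated chains, and -1.20 for *Hadhb*, but -0.10 for *Hadh* and -0.06 for *Acadm*.

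**Figure D3:**
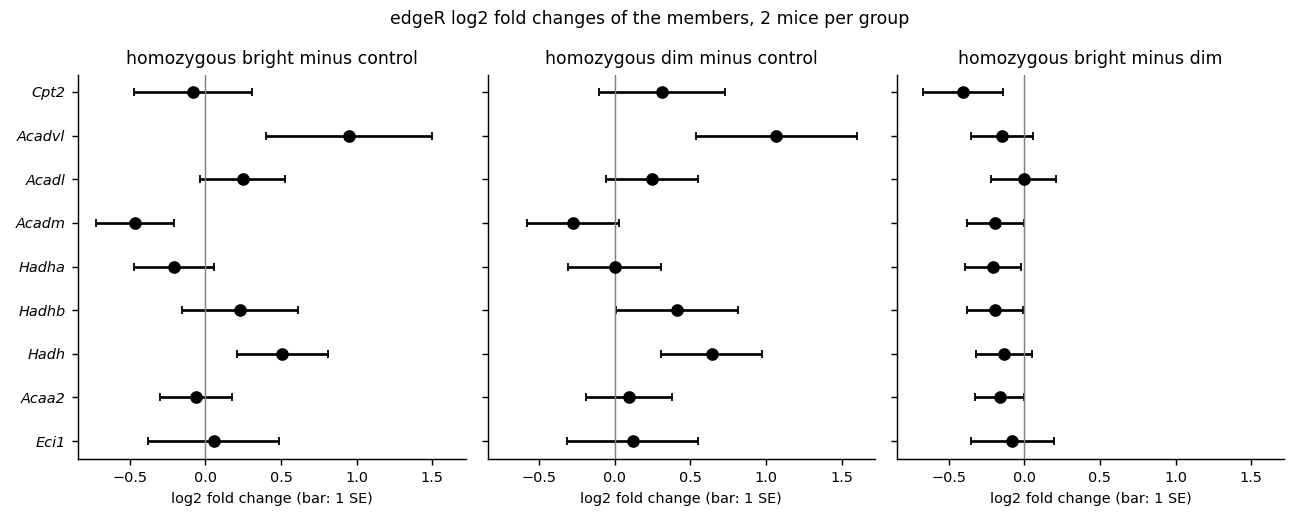
Log2 fold changes (x axis) of 9 members without *Cpt1b* in the 3 comparisons, with bars of 1 SE from edgeR's unpaired fit, 2 mice per group. No member passed the adjusted threshold, and the largest values were those of *Acadvl* (0.95 and 1.07) in both comparisons with control. That rank rested on control mouse M73. Without this mouse *Acadvl* was at 0.37 and 0.50 and *Hadh* at 0.49 and 0.61.

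The third comparison asked whether bright and dim CMs of the same homozygous hearts differ. No member and 0 of 13439 genes (0%) passed an adjusted p of 0.05 with edgeR, an unadjusted p under 0.05 was seen for 0 members and 830 genes (6.18%), and DESeq2 gave 89 genes and 0 members. With the mouse as replicate block, the paired fit, 0 genes and 0 members were called. In the unpaired fit all 9 readable members had a negative log2 fold change, from -0.41 ± 0.27 for *Cpt2* to -0.0046 ± 0.22 for *Acadl*. The median over the 10 members was -0.15 (-0.10 without the 3 wells) against -0.0047 over all genes tested. The SEs were smaller in the paired fit, with -0.20 ± 0.085 for *Hadha*, -0.16 ± 0.074 for *Acaa2* and -0.014 ± 0.077 for *Acadl*. Their edgeR adjusted p was 0.711, 0.727 and 0.979. Both bright sums lay below both dim sums for 4 members (*Hadha*, *Hadhb*, *Hadh* and *Acaa2*), as for 15.8% of all genes, and above them for 0 members, as for 15.3%. Without the 3 wells this held for 1 member, *Acaa2*, and *Acadl* turned to 0.03. By animal, 7 of the 9 readable members were lower in bright CMs within both mice, as were 25% of all genes tested, and 0 were higher within both, as were 25.8%. The same 7 were lower within both mice without the 3 wells, but in mouse M116 only *Acadm* of the 7 was lower on both plates, as given below. *Cpt2* differed by -0.79 on the log2 scale in mouse M25 and by 0.02 in mouse M116, and its fitted value was -0.11 without the dim CMs of mouse M25. Endothelial markers moved with these values, and 6 of 6 were lower in both bright sums than in both dim sums. Summed, they stood at 146 and 134 against 420 and 282 normalized CPM. So did immune markers (0.252 and 1.80 against 70.3 and 57.2) and mural markers, with 3 of 3 tested at a negative value. Fibroblast markers went the other way, with 7 of 7 tested at a positive value. Their sum was 2419 and 70.1 in bright against 63.9 and 219 in dim CMs, and 292 in bright CMs of mouse M25 without the 3 wells. The part of these markers was not tested.

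Within mouse M116, each brightness class was spread over 2 plates, which gives a spread between libraries of the same heart. The 9 readable members differed between plates by a median of 0.13 on the log2 scale, and by at most 0.53, for *Hadhb* in dim CMs. In this mouse the difference of bright from dim CMs was between -0.14 and 0.02 for all 9, smaller than that largest difference between plates. Bright and dim CMs shared both plates, and in CPM scaled by the library total alone the direction differed between them. On plate 2, 7 of the 9 readable members were higher in bright CMs (*Hadhb* at 1072 against 948 CPM, a log2 difference of 0.18), where the median of all genes was 0.02. On plate 3, 8 of the 9 were lower (*Hadhb* at 1134 against 1373 CPM, a log2 difference of -0.28), where the median of all genes was 0.10.

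*Hadha* and *Hadhb*, the α and β subunits of the mitochondrial trifunctional protein, whose windows overlap as given above, did not keep one ratio across libraries. *Hadha* stood at 1011 and 1138 normalized CPM in control mice M26 and M73, and *Hadhb* at 1170 and 509. Their count ratio was 0.865 in mouse M26, 0.920 to 0.974 in the 4 homozygous sums, 1.30 and 1.32 in mouse M72 and 2.23 in mouse M73. In mouse M73, *Hadha* exceeded *Hadhb* in 8 of 8 CMs with at least 1000 genes, and in mouse M72 in 19 of 24 and 19 of 25, against 6 of 20 in mouse M26. The 3 sums with ratios over 1 are those of one plate, which also had the highest mitochondrially encoded share, so plate and animal cannot be told apart.

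In mouse M72, with 1 animal and no test, *Hadh* stood at 431 and 354 normalized CPM in the sums labelled bright and dim, *Acadm* at 880 and 852, and *Acaa2* at 1620 and 1365. The *Hadh* values of mouse M72 lay above and its *Acadm* values below both controls. Its *Acaa2* values were the lowest of the 8 sums. The 10 members summed to 6821 and 5932 normalized CPM in it, against 6398 to 9054 in the control and homozygous sums.

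Over single CMs with at least 1000 genes, the 10 members summed to medians of 7577 and 4985 CPM in control mice M26 and M73. The medians were 8876 (M25) and 8078 (M116) in bright homozygous CMs, and 9175 and 8539 in the dim ones. In mouse M72 they were 6037 and 5697 in the CMs labelled bright and dim. Each of *Acadl*, *Acadm*, *Hadha*, *Hadhb*, *Acaa2* and *Eci1* had a count in 100% of these cells. The medians are of CPM scaled by the library total alone, and the sums in normalized CPM had another order. In those sums mouse M26 stood at 8338 and mouse M73 at 6398, against 7961 and 7216 in bright and 9054 and 7617 in dim CMs. Without the 3 wells, the bright sum of mouse M25 was at 8403 and mouse M26 at 8347. The coefficient of variation between cells, as the median over the 8 sums and without the 3 wells, was lowest for *Hadha* (0.261) and *Acadl* (0.275) and, among the 9 readable members, highest for *Cpt2* (0.805).

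**Figure D4:**
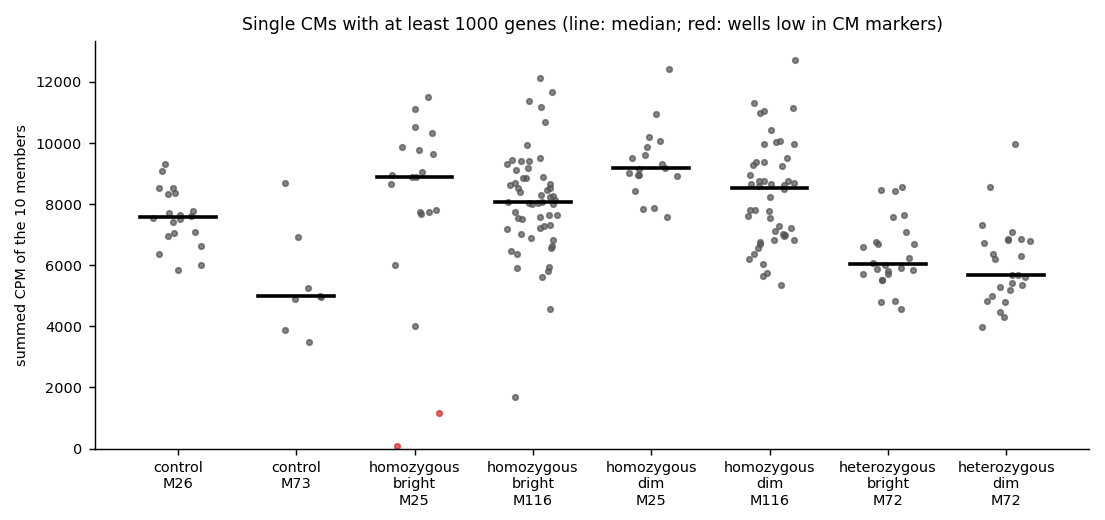
Summed CPM of the 10 members (y axis, from 0) in each single CM with at least 1000 genes, by mouse and class, with the median as a line and wells low in CM markers in red. Medians ranged from 4985 in control mouse M73 to 9175 in dim CMs of mouse M25, with wide overlap between cells. These CPM were scaled by the library total alone, and the sums in normalized CPM had another order.

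After log2(CPM + 1) and centring on each mouse and class, the 36 pairs of the 9 readable members had Spearman correlations of 0.02 to 0.55 (median 0.16) over 217 CMs, as a description of cells that share libraries and depth. The highest were *Hadhb* with *Acaa2* (0.55) and *Hadha* with *Acaa2* (0.36), and the 5 lowest each involved *Cpt2* or *Acadl*. By the same measure over 219 CMs, the genes outside the 10 members most like their summed level, of 4910 with a count in at least 50% of the cells, were *Slc25a4* (0.68), the adenine nucleotide carrier, *Atp5a1* (0.62), an ATP synthase subunit, *Eno3* (0.59), the muscle enolase, *Ckm* (0.58), the muscle creatine kinase, and *Fabp3* (0.56), the heart fatty acid binding protein. Without the low wells *Slc25a4* stayed first, at 0.62, *Gm13910*, named after its values were seen, was second at 0.56, and *Fabp3* was sixth.

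**Figure D5:**
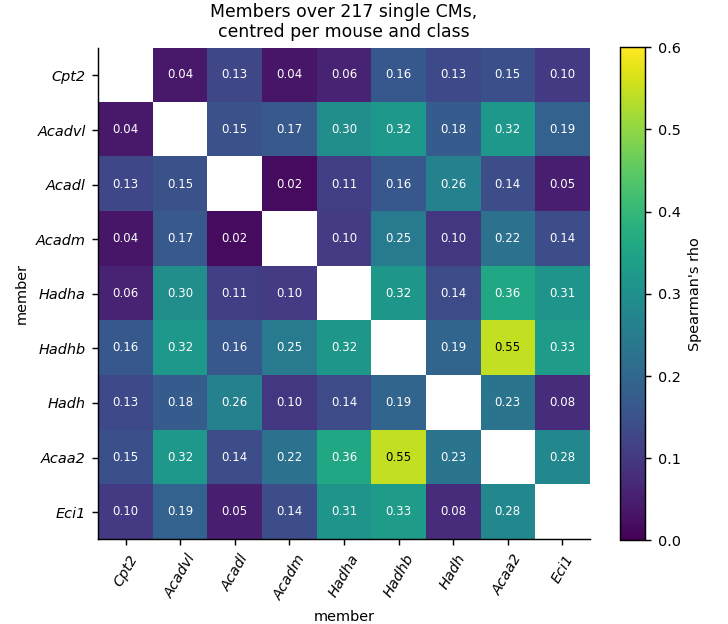
Spearman correlations (colour and printed value) between the 9 readable members over 217 single CMs, centred per mouse and class. *Hadhb* with *Acaa2* had the highest value (0.55) and *Acadl* with *Acadm* the lowest (0.02).

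The other genes of the pathway gave 0 calls with edgeR at an adjusted p of 0.05 in all 3 comparisons. Of 10 further matrix enzymes, 2 had a positive and 8 a negative log2 fold change in bright CMs against control (median -0.49), among them *Ech1*, a dienoyl-CoA isomerase, with 2637 and 1609 normalized CPM in control and 1629 and 1334 in bright CMs, and *Decr1*, a dienoyl-CoA reductase, with 770 and 702 against 508 and 415. The CM markers moved with this group, with 10 of 10 at a negative value (median -0.57) and 6 below both controls in both bright sums, as did summed endothelial markers (146 and 134 normalized CPM against 252 and 358 in control), and their part was not tested. *Decr1* had a log2 fold change of -0.70 ± 0.29 (edgeR adjusted p = 0.606). Of the 3 electron transfer genes, *Etfb* stood at 235 and 276 normalized CPM in control and at 152 and 104 in bright CMs, with -1.02 ± 0.38 (edgeR adjusted p = 0.606), while its partner subunit *Etfa* had 0.18 ± 0.32 (edgeR adjusted p = 0.898). Of the activation and carnitine genes, 8 of 10 were tested, 6 with a positive and 2 with a negative value (median 0.02). *Cpt1a*, the liver form of the outer membrane transferase, stood at 15.5 and 13.0 normalized CPM in control, 20.6 and 31.6 in bright and 22.1 and 50.0 in dim CMs of mice M25 and M116, with both homozygous groups above both controls and log2 fold changes of 0.83 ± 0.60 (edgeR adjusted p = 0.719) and 1.29 ± 0.65 (edgeR adjusted p = 0.637). Of the peroxisomal genes, 10 of 11 were tested, with 5 of each sign (median -0.03).

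Among 11 regulators of fatty acid oxidation, *Ppargc1a*, a coactivator of mitochondrial and fatty acid oxidation genes, stood at 944 and 1020 normalized CPM in control mice M26 and M73. It stood at 227 in the bright CMs of both mice M25 and M116, at 303 and 325 in the dim ones, and at 446 and 378 in the sums labelled bright and dim of mouse M72. All 6 transgenic sums, from mice M25, M116 and M72, lay below both controls. Its log2 fold change against control was -2.14 ± 0.29 in bright and -1.66 ± 0.32 in dim CMs (SE, n = 2 mice per group). The edgeR adjusted p was 0.272 and 0.611. Of all genes tested, 14.3% had both bright sums and 13.7% both dim sums below both controls. Summed CM markers were also lower in the transgenic sums (63836 to 80024 normalized CPM against 95114 and 94294), and their part was not tested. *Ppara*, a fatty acid receptor that regulates many of these enzymes, stood at 31.6 and 16.8 in control and 19.9 and 5.50 in bright CMs and *Esrra* at 16.9 and 12.5 against 11.9 and 14.7, with overlapping groups. Of the 11 regulators, 4 had a positive and 7 a negative value in bright CMs against control (median -0.36). Of the 24 pathway genes picked for naming, those not described above ranged from -1.33 ± 0.80 for *Slc22a5*, a carnitine transporter, to 0.66 ± 0.63 for *Esrrg*, an oestrogen-related receptor, in that comparison. Across 217 single CMs, centred in the same way, the summed level of the 10 members had a Spearman correlation of 0.10 with *Ppargc1a*.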

How the data were processed

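Single CMs were sequenced with the SMART-seq2 protocol, without molecular identifiers. The authors demultiplexed the reads with bcl2fastq, aligned them with STAR against the mouse genome, to which the transcripts of human BAG3 and eGFP had been added, and deposited raw counts per gene. The build, annotation and strand column are not given in the sources used here, and gene overlaps were read from GENCODE M21, in which 55009 of the 55397 symbols were found. All 234 columns were matched to a cell by its label.

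The deposited counts were added up by mouse and eGFP class, since the animal is the replicate, and the study's test over cells was not used. Testing was done in R 4.3.3 with edgeR 4.0.16 (TMM, filterByExpr, bias-adjusted quasi-likelihood fit, Benjamini-Hochberg adjustment over all genes tested, threshold 0.05), with 2 mice per group. Alternatives used DESeq2 1.42.0, limma 3.58.1, other scalings and filters, a block for the library set, and each mouse left out in turn. The scripts were tested on simulated data.

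In mice M25 and M116, bright and dim CMs are paired because they come from the same animals. Over 13439 genes the deviations of the mice in bright and in dim CMs had a correlation of 0.08.

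A cell held 487 to 1392253 counts (median 711527). A count of 0 allows up to 3 counts, which covers counting error only. The members and gene lists were chosen with earlier results of these data known. *Acaa2* and *Hadhb* also belong to an energy list picked by the study from these cells, so their direction is not independent evidence. The genes to name were all 10 members, 24 further pathway genes and the 5 genes most like the members over cells.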

Additional observations from a re-analysis of the deposited data

Results flagged for a closer look

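For 5 members the difference of bright from dim CMs was negative in both homozygous mice and positive in the heterozygous mouse M72, in which the transgene was lower in the sum labelled bright. On the log2 scale it was -0.28 and -0.11 in mice M25 and M116 and 0.38 in mouse M72 for *Hadha*, -0.31 and -0.05 against 0.40 for *Hadhb*, and -0.24 and -0.07 against 0.25 for *Acaa2*. It was -0.18 and -0.07 against 0.28 for *Hadh* and -0.27 and -0.09 against 0.046 for *Acadm*. With 1 heterozygous animal the difference between genotypes was not tested, and genotype, animal and plate cannot be told apart. The share of all genes with the same pattern of signs was not computed. The pattern is therefore not shown to be particular to these enzymes. The transgene stood at 110 normalized CPM in the sum of mouse M72 labelled bright and at 243 in that labelled dim. *Acadvl* and *Eci1* were lower in bright CMs in both homozygous mice and, at -0.28 and -0.09, also in mouse M72. Without the 3 wells low in CM markers the signs were the same, and the differences in mouse M25 were smaller, at -0.19 for *Hadha*, -0.22 for *Hadhb*, -0.14 for *Acaa2*, -0.09 for *Hadh* and -0.18 for *Acadm*. In mouse M116, *Hadha*, *Hadhb*, *Acaa2* and *Hadh* were higher in bright CMs on plate 2 (log2 differences of 0.07 to 0.18 in CPM) and lower on plate 3 (-0.28 to -0.20), so their sign in that mouse rested on 1 plate.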

How the results depend on the processing

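With 2 mice per group, the comparisons resolve only changes beyond the spread between mice, and the 9 cells of mouse M73 limit every value against control. No member was called under any alternative, and the lowest adjusted p of a member was 0.488 for bright CMs against control, 0.450 for dim CMs against control and 0.607 for bright against dim CMs. Alternatives that set wells low in CM markers or mitochondrially encoded genes aside, left out *Cpt1b* or joined these with the block, and the counts of direction within each mouse or plate and of gene pairs, were chosen after seeing the data. The causes of the differences below were not tested. The direction of a member was kept in 145, 148 and 146 of 160 values in the 3 comparisons.

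Genes called in bright CMs against control, 1 in the report, were 106 with DESeq2, 2 with library size only, legacy quasi-likelihood or without the low wells, 4 with equal weight per cell in limma, and 0 with no filter, all 8 sums in 1 fit, the library set as block, mitochondrially encoded genes left out or any 1 mouse left out. In dim CMs against control, 0 in the report, they were 55 with DESeq2 and 1 with equal weight per cell or with bright and dim cells summed. In bright against dim CMs they were 89 with DESeq2 and 2 with equal weight per cell. With the mouse as replicate block, the paired fit called 0 genes and gave a median of -0.15 over the members, and it changed no other call.

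The median over the members for bright CMs against control was 0.42 with library size only, 0.055 without *Cpt1b*, 0.74 with equal weight per cell and -0.13 to 0.48 with 1 mouse left out. For dim CMs it was 0.55 with library size only, 1.19 with equal weight per cell and 0.067 to 0.71 with 1 mouse left out. In both comparisons the median of all genes tested also moved with the setting, up to 0.94 and 0.93 without mouse M26. For bright against dim CMs it was -0.10 without the low wells, with or without the block, -0.60 with equal weight per cell and -0.27 to -0.045 with 1 mouse left out.

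In bright CMs against control, *Cpt2*, *Hadha* and *Acaa2* turned to 0.22, 0.12 and 0.25 with library size only and to 0.054, 0.44 and 0.040 with equal weight per cell, and *Cpt2* and *Acaa2* to 0.12 and 0.0049 with bright and dim cells summed. With 1 mouse left out, *Cpt2* ranged from -0.34 to 0.31, *Acaa2* from -0.16 to 0.059, *Hadhb* from -0.22 to 0.93 and *Eci1* from -0.41 to 0.81. In dim CMs, *Acadm* and *Hadha* turned to 0.012 and 0.29 with library size only and to 0.50 and 0.98 with equal weight per cell, and *Hadha* to 0.041 with no filter and 0.017 with all 8 sums in 1 fit. With 1 mouse left out, *Hadha* ranged from -0.094 to 0.12, *Hadhb* from -0.048 to 1.14, *Acaa2* from -0.022 to 0.23 and *Eci1* from -0.35 to 0.90. In bright against dim CMs, *Acadl* turned to 0.0080 with DESeq2, 0.023 with library size only, 0.0078 with RLE factors, 0.0019 with no filter, 0.0021 with all 8 sums in 1 fit, 0.0047 with mitochondrially encoded genes left out, 0.031 without the low wells and 0.017 with the block and without them. With 1 mouse left out, *Acadl* ranged from -0.23 to 0.20, *Eci1* from -0.40 to 0.19 and *Cpt1b* from -0.33 to 0.86.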
